A study of Mus musculus with 4 samples.

Results

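Expression of 10 genes that mark blood vessels or carry leukocyte adhesion was compared between back skin of K5-IKKbeta transgenic mice and of wild type mice. The genes were taken by their symbols: every probe set of the array whose platform annotation names only Icam1, Vcam1, Sele, Selp, Pecam1, Cdh5, Vwf, Kdr, Tek or Tie1 was included, which gave 15 of 45101 probe sets and 10 of 18194 named genes. Both genotypes were 32-day-old males of a C57BL6 X DBA2 background, and each was measured on 2 Affymetrix arrays (n = 2 per group), with RNA pooled from 3 mice on every array. The transgene puts IKKbeta, the kinase that activates NF-kB, under the control of keratin K5 elements. Keratin K5 is a product of basal keratinocytes, so these elements are not those of an endothelial gene, and whether vessel cells carried the transgene product was not measured.

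Leukocytes leave the blood in steps. Selectins on the wall of an activated vessel catch them, ICAM-1 and VCAM-1 then hold them through leukocyte integrins, and the cells finally pass between endothelial cells whose junctions are held by VE-cadherin and PECAM-1. In endothelium, tumour necrosis factor and interleukin-1 raise E-selectin, VCAM-1 and ICAM-1 through NF-kB, while VE-cadherin, von Willebrand factor and the receptors for VEGF and angiopoietins are made by resting vessels too. Accordingly, Icam1, Vcam1, Sele and Selp are called activation genes here, and Pecam1, Cdh5, Vwf, Kdr, Tek and Tie1 constitutive vessel markers. Selp is included as a selectin of activated vessels, and no rise of its mRNA is implied by the name. Several of these genes are not restricted to endothelium: keratinocytes of inflamed skin make ICAM-1, some fibroblasts and dendritic cells make VCAM-1, leukocytes and platelets carry PECAM-1, and platelets hold P-selectin and von Willebrand factor.

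Values are log2 RMA expression values, on which a difference of 1 is a 2-fold difference, and a log2 fold change is positive where K5-IKKbeta skin was higher. A gene or probe set passed the threshold, or was called, when its limma p after Benjamini-Hochberg adjustment was under 0.05; genes were adjusted over the 13074 whose brightest probe set exceeded the 40th percentile (a filter on dim probe sets), and probe sets over all 45101. These p-values rest on the spread between pools of mice, which limma moderates across genes. The gene fit had 4 prior and 2 residual degrees of freedom. Array medians lay between 6.91 and 6.96. A group was taken to be near background for a probe set when both of its arrays lay below the 25th percentile of their own array (5.27 to 5.38). Of 5 probe sets for Ikbkb, the gene of the transgene, 3 were higher in K5-IKKbeta skin, with log2 fold changes of 0.47 to 2.24 (limma adjusted p = 0.045 for the weakest of these calls). In whole skin, more cells of a type and more RNA per cell cannot be told apart. Probe sets bind with different strength, so levels are compared between arrays and not between probe sets.

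Promoter sequences of 3 activation genes are shown, chosen with their array values known. Icam1 rose, no probe set of Selp passed the threshold, and Sele was near background in both groups, where a change was not detectable. RefSeq sequences (GRCm38.p6) were at hand for 6 of the 10 genes, and Vcam1 was not among them. Each run below holds the 250 bases before the gene start, 5′ to 3′ on the plus strand, and capitals mark matches on either strand to GGNNTTTCC, a short form of sites that NF-kB can bind. They lie at chr9:21015690-21015939 for Icam1, chr1:164047984-164048233 for Sele and chr1:164115014-164115263 for Selp.
Icam1: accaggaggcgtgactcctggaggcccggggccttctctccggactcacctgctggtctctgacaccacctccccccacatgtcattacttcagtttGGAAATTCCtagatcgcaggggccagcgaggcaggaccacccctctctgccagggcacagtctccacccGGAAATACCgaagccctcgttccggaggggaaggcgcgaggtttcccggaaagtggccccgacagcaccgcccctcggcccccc
Sele: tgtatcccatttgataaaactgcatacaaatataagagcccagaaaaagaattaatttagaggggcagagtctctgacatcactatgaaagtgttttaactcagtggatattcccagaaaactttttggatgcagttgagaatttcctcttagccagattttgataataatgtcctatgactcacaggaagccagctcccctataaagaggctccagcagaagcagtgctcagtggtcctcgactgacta
Selp: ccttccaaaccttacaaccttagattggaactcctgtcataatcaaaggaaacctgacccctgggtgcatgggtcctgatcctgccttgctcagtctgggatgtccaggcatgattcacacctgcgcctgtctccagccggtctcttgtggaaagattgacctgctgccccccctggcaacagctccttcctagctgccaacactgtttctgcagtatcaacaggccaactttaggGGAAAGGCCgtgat
Icam1 held 2 matches, which began 153 and 84 bases before the gene start, and Selp held 1, which began 14 bases before it. No match was found in these windows of Sele, Kdr, Tek and Tie1. The motif occurred in 4.93% of all 32851 promoter windows of this length. A longer form, the usual 10-base NF-kB consensus, occurred in 7.25% of windows and among the 6 genes in that of Kdr alone, as a stretch that matches on both strands and began 74 bases before the start. These matches describe letters and not binding, and a link between them and the array values was not tested.

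Among the activation genes, the immunoglobulin-type adhesion molecules Icam1 and Vcam1 were higher in K5-IKKbeta skin and the selectins did not pass the threshold. Icam1 encodes the ligand of the leukocyte integrins LFA-1 and Mac-1. Its probe set (1424067_at) measured 7.67 and 7.62 in the wild type pools and 10.97 and 10.45 in the K5-IKKbeta pools. The groups stood far apart, although the K5-IKKbeta pools themselves differed by 0.52. From 7.64 ± 0.03 to 10.71 ± 0.37 (SD, n = 2 each), the rise was 8.41-fold, with a log2 fold change of 3.07 (limma 95% interval 2.64 to 3.50; adjusted p = 1.3e-04 over all tested genes).

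**Figure D1:**
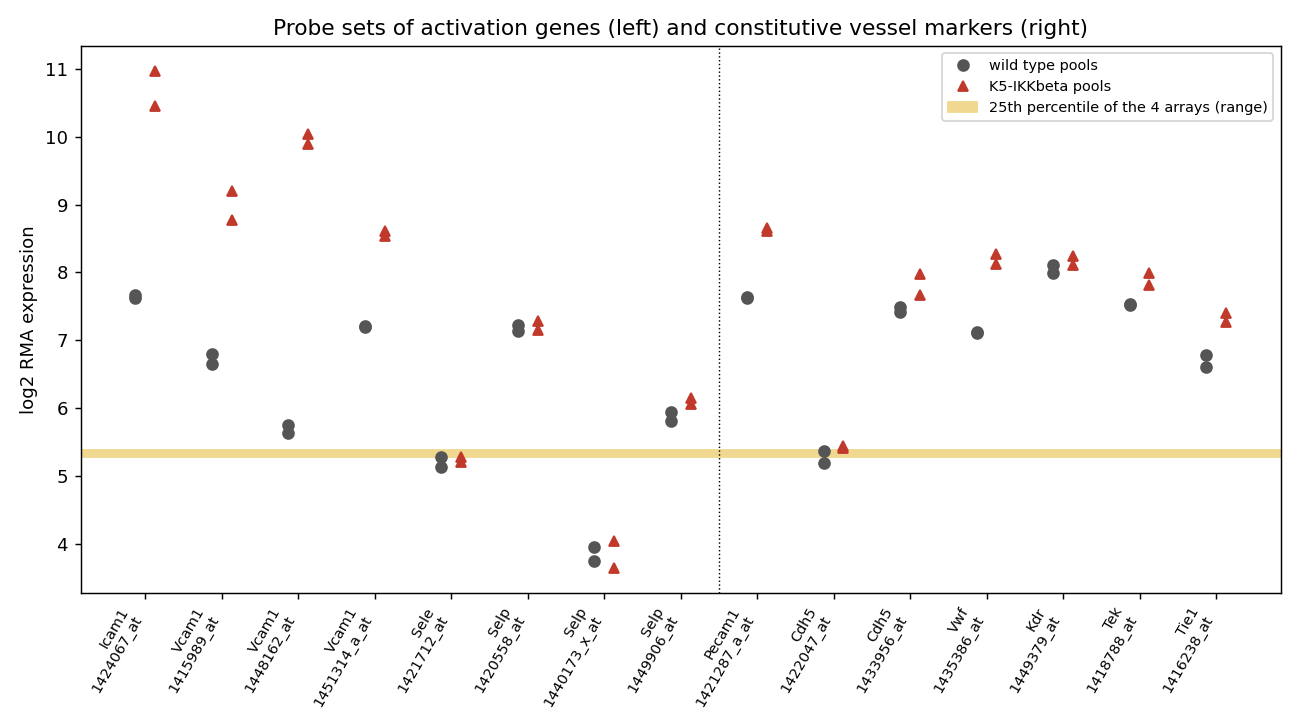
Log2 RMA expression (vertical axis) of the 15 probe sets, with circles for the 2 wild type pools, triangles for the 2 K5-IKKbeta pools and a band for the range of the arrays' 25th percentiles. The pools are widely separated for Icam1 and Vcam1, overlap for Sele and for probe set 1420558_at of Selp, and are separated by about 1 for Pecam1 and Vwf.

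Vcam1, the ligand of the integrin that pairs the alpha 4 chain with beta 1, rose on every one of its 3 probe sets. Probe set 1448162_at measured 5.63 and 5.75 in wild type and 9.89 and 10.04 in K5-IKKbeta skin. On 1415989_at the values were 6.80 and 6.65 against 9.20 and 8.78. Probe set 1451314_a_at gave 7.21 and 7.19 against 8.54 and 8.61. No pool of either group overlapped the other on any of them, but the size of the rise depended on the probe set. It was 19.4-fold on 1448162_at (log2 fold change 4.28, 95% interval 3.999 to 4.562), 4.82-fold on 1415989_at (2.27, 1.88 to 2.66) and 2.59-fold on 1451314_a_at (1.37, 1.12 to 1.63). The 3 intervals did not overlap, and the limma adjusted p over all probe sets was 5.6e-04 or lower. Both wild type pools lay only a little above the 25th percentile on 1448162_at.

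The probe set that stands for Vcam1 in the fit over genes, 1451314_a_at, was taken because its mean over the 4 arrays was the highest (7.89). The other means were 7.86 and 7.83, so a narrow margin selected the probe set with the smallest rise. With that choice, Vcam1 had an adjusted p of 2.4e-04 over all tested genes (limma), and with the mean of its 3 probe sets its log2 fold change was 2.64. The ending _a_at marks a probe set that can bind several transcripts of the same gene. Where each one lies on the Vcam1 transcripts was not analysed here. The pools also ranked differently: K5-IKKbeta pool 1 exceeded pool 2 by 0.42 on 1415989_at and lay 0.06 and 0.15 below it on the other probe sets.

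**Figure D2:**
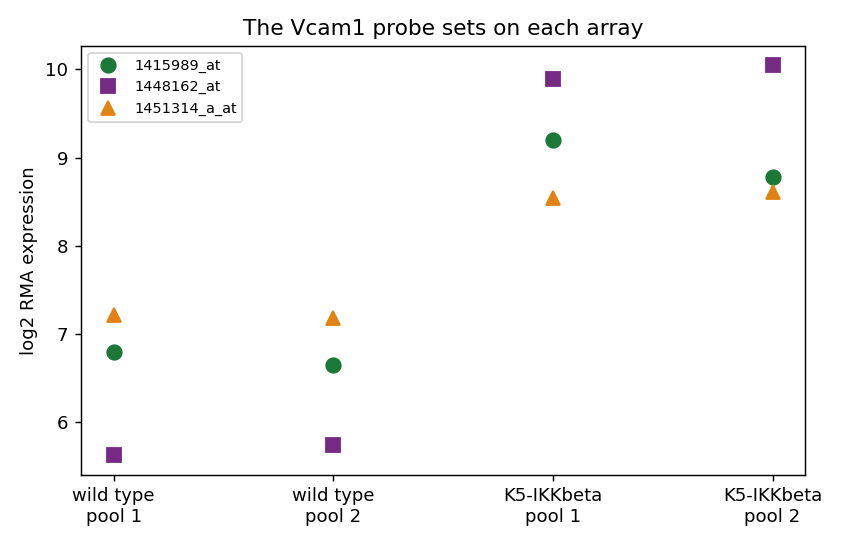
Log2 RMA expression (vertical axis) of the 3 Vcam1 probe sets on each of the 4 arrays (horizontal axis), 1 symbol per probe set. All 3 are higher in both K5-IKKbeta pools, and 1448162_at goes from 5.63 and 5.75 in wild type to 9.89 and 10.04.

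The selectins gave a different picture. Sele encodes E-selectin, a selectin that activated endothelium makes. Its probe set (1421712_at) measured 5.27 and 5.13 in wild type and 5.28 and 5.20 in K5-IKKbeta skin, below the 25th percentile on every array. The pools overlapped, and since both groups were near background no fold is given. The filter on dim probe sets removed Sele from the fit over genes, and over all probe sets its adjusted p was 0.88 (limma). At this signal a change in E-selectin mRNA was not detectable, which does not show that there was none.

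Selp encodes P-selectin, which endothelial cells and platelets store in granules and move to the surface on activation. The brightest of its 3 probe sets, 1420558_at, measured 7.13 and 7.22 in wild type and 7.16 and 7.28 in K5-IKKbeta skin. The groups overlapped, with a log2 fold change of 0.04 (95% interval -0.20 to 0.29; limma adjusted p = 0.78 over all tested genes). That interval leaves room for a small change only, well short of the Icam1 interval. Probe set 1449906_at gave 5.93 and 5.81 against 6.06 and 6.14, without overlap but short of the threshold (0.23, adjusted p = 0.24 over all probe sets). The third, 1440173_x_at, lay below the 25th percentile on all arrays (3.64 to 4.04), and its ending marks probes that may bind other sequences.

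Of the constitutive vessel markers, 4 of 6 were higher in K5-IKKbeta skin and none was lower (limma, adjusted over all tested genes). Among all tested genes, 23.4% were called higher and 10.6% lower. Pecam1, a junctional adhesion molecule of endothelium that leukocytes and platelets also carry, measured 7.63 and 7.62 in wild type and 8.66 and 8.61 in K5-IKKbeta skin. Its pools agreed closely within each group. The rise was 2.01-fold (log2 fold change 1.01, 95% interval 0.79 to 1.23; adjusted p = 6.9e-04). Vwf, the clotting and platelet-tethering protein of endothelial granules, measured 7.11 and 7.12 against 8.28 and 8.12. It rose 2.12-fold (1.09, 0.84 to 1.33; adjusted p = 7.4e-04).

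The receptors moved less. Tie1, an orphan receptor that works with the angiopoietin receptor, measured 6.60 and 6.78 in wild type and 7.40 and 7.27 in K5-IKKbeta skin, without overlap. It rose 1.56-fold (log2 fold change 0.64, limma adjusted p = 0.0071). Without wild type pool 1, which leaves 1 array in that group, the log2 fold change was smaller, at 0.55. Tek, the angiopoietin receptor Tie2, measured 7.52 and 7.53 against 7.99 and 7.82. Its 1.31-fold rise (0.38, adjusted p = 0.033) was the weakest call. The limma adjusted p was 0.071 over all probe sets and 0.060 with another quantile normalization. Fits that left out each array in turn, with 1 array in a group, gave Tek log2 fold changes of 0.299 to 0.469. Kdr, the main VEGF receptor of blood vessels, measured 7.99 and 8.11 against 8.11 and 8.24. Its lowest K5-IKKbeta value barely exceeded its highest wild type value, and the log2 fold change of 0.13 (95% interval -0.13 to 0.38) did not pass (adjusted p = 0.40).

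Cdh5 encodes VE-cadherin, the cadherin of endothelial junctions. On 1433956_at it measured 7.49 and 7.41 in wild type and 7.66 and 7.98 in K5-IKKbeta skin. The pools did not overlap, but those of K5-IKKbeta skin differed by 0.32, and the log2 fold change of 0.37 fell short of the threshold (limma adjusted p = 0.078). Without K5-IKKbeta pool 1, which leaves 1 array in that group, the log2 fold change was 0.53. The second probe set, 1422047_at, was near background in wild type (5.36 and 5.19, against 5.40 and 5.43; adjusted p = 0.49 over all probe sets).

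**Figure D3:**
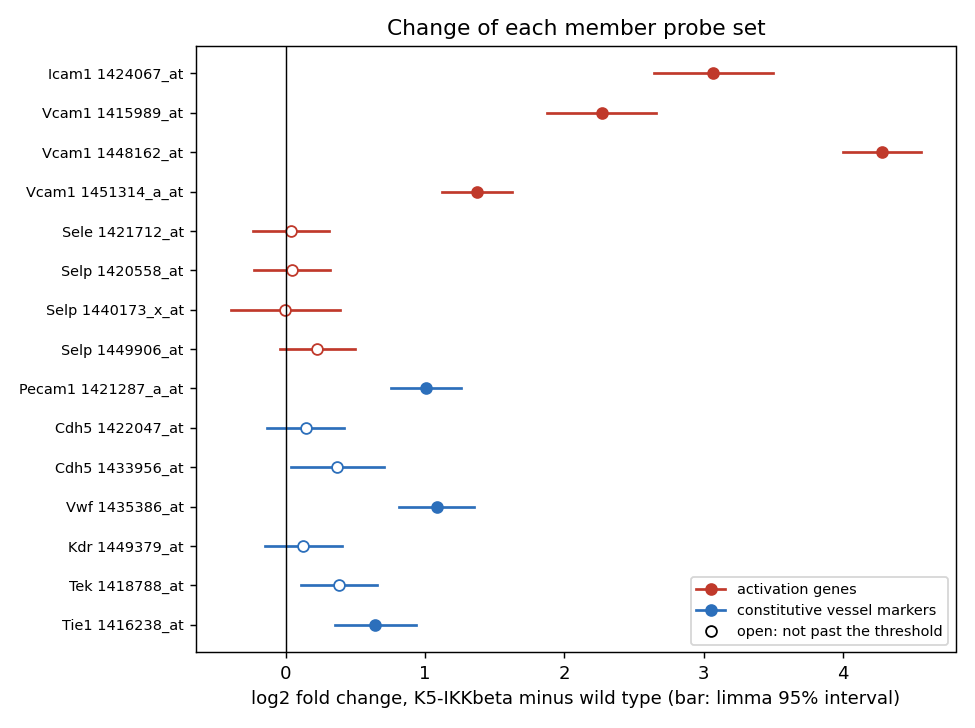
Log2 fold change, K5-IKKbeta minus wild type (horizontal axis), of each of the 15 probe sets with its limma 95% interval, activation genes in red and constitutive vessel markers in blue; open symbols did not pass the threshold over all probe sets. Icam1 and Vcam1 lie at 1.37 to 4.28, Sele and Selp at -0.0034 to 0.23, and the constitutive markers at 0.13 to 1.09.

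Counted over probe sets, 7 of 15 were higher and 0 lower (limma, adjusted over all probe sets), where 10.4% of all probe sets were called higher. The lowest estimate was -0.0034, for 1440173_x_at of Selp. Both K5-IKKbeta pools lay above both wild type pools for 12 of the 15, against 30.3% of all probe sets. Counted over genes, 9 of the 10 passed the filter on dim probe sets, and 6 of these were called higher and none lower. Of all 13074 tested genes, 23.4% were called higher and 10.6% lower.

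Set side by side, the activation genes spread widely and the constitutive markers narrowly. The 3 tested activation genes had log2 fold changes from 0.04 (Selp) to 3.07 (Icam1), with a median of 1.37, which is the value of Vcam1. The 6 constitutive markers ranged from 0.13 (Kdr) to 1.09 (Vwf), with a median of 0.51. Over all tested genes the median was 0.09. The difference of the medians, 0.86, depends on which genes are counted: with Sele included by dropping the filter it was 0.196, and with Selp and the constitutive marker Tie1 removed by a filter at the 60th percentile it was 1.839. The intervals of Icam1 and of Pecam1 and Vwf did not overlap, while that of Selp lay below those of Pecam1 and Vwf. In the same fit over genes, the Vcam1 interval (1.15 to 1.60, on 1451314_a_at) overlapped those of both Pecam1 and Vwf. A difference in change between the activation and constitutive sets was not tested.

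The 5 tested genes whose values followed Icam1 most closely over the 4 arrays were Pctp, Ces4a, Krt16, Lcn2 and Ccl2. Likeness was the Euclidean distance between array values after each gene was centred on its own mean, and it ranged from 0.10 for Pctp, a phosphatidylcholine transfer protein, to 0.24 for Ccl2, a chemokine for monocytes. Krt16, a keratin of stressed epidermis, measured 8.71 and 8.70 in wild type and 12.10 and 11.76 in K5-IKKbeta skin. Lcn2, a siderophore-binding protein, measured 5.56 and 5.32 against 8.76 and 8.43. Each shared with Icam1 a higher value in K5-IKKbeta pool 1 than in pool 2, and 4 arrays in 2 groups can show little more than the size of the group difference.

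Further endothelial genes were mostly higher as well. Of 22 tested genes in a list of endothelial genes outside the 10, 13 rose and none fell in the limma fit, with a median log2 fold change of 0.49 beside 0.09 for all tested genes. The shares of all tested genes, 23.4% called higher and 10.6% lower, apply beside this count and each list count below. Sox18, a transcription factor of vessel development, rose by 1.76 (adjusted p = 2.0e-04), and Ecscr, an endothelial surface protein, by 1.62 (adjusted p = 1.3e-04). Plvap, which forms the diaphragms of endothelial pores, had a log2 fold change of 0.95 and Ramp2, a partner of the adrenomedullin receptor, 0.87. These are the largest rises of the list. The 9 genes that did not pass ranged from Erg at -0.14 to Aplnr at 0.46, with Robo4 at 0.09 and Flt1 at 0.15. All 5 tested lymphatic endothelial markers rose, with a median of 1.02, the value of Pdpn. Reln, a secreted glycoprotein, rose by 1.16 and Lyve1, a hyaluronan receptor, by 0.94. The smallest rise was that of Flt4, at 0.42 (limma adjusted p = 0.043). Which cells of the skin gave these values was not tested. Prox1, the defining transcription factor of lymphatic endothelium, was removed by the filter.

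Other adhesion and transmigration genes moved in both directions. In that list 10 of 14 tested genes rose and 2 fell (median log2 fold change 0.48). Cd99, which takes part in passage through junctions, rose by 0.91 (limma adjusted p = 0.0010), Cd34, a sialomucin of vessels and follicle stem cells, by 0.90, Emcn, a mucin of capillaries and veins, by 0.84, and Icam2, a constitutive ligand of LFA-1, by 0.82. The members that fell, F11r at -0.49 and Cd99l2 at -0.73, were singled out after their values were seen. Values for Cd99 come from an _x_at probe set, which may bind other sequences.

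**Figure D4:**
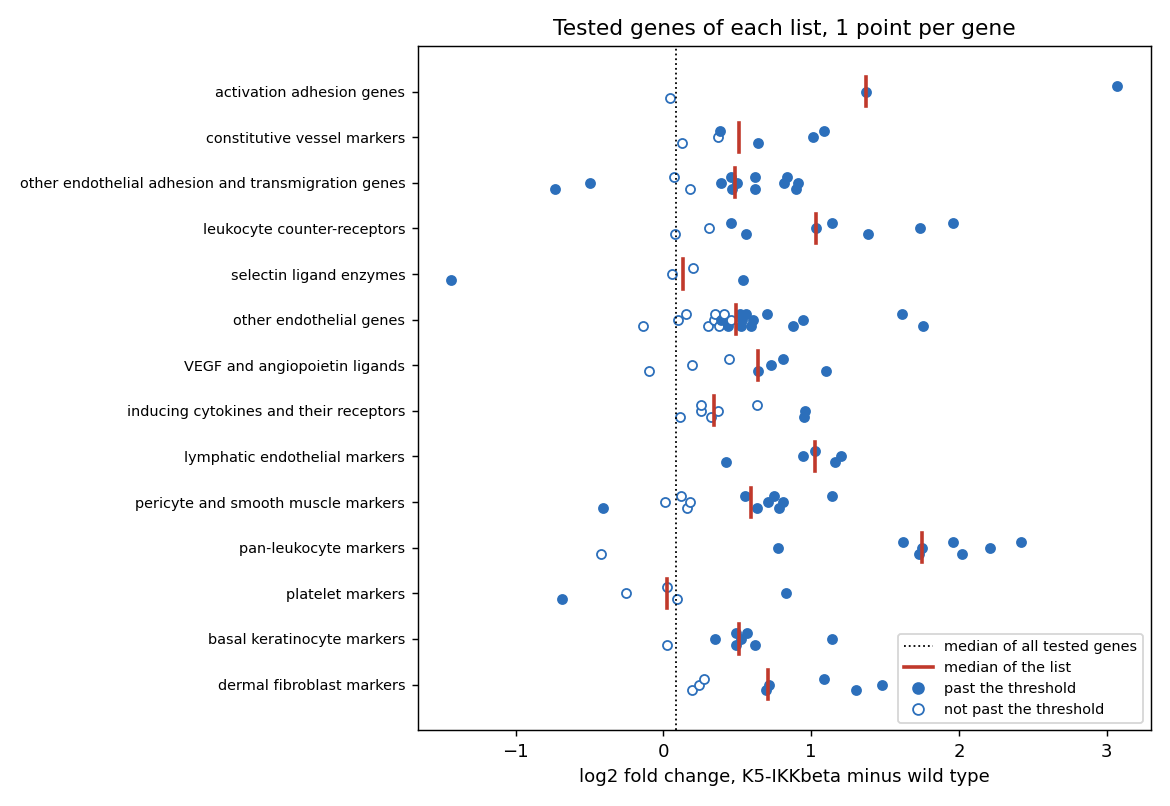
Log2 fold change, K5-IKKbeta minus wild type (horizontal axis), of the tested genes of each list, 1 point per gene, filled where it passed the threshold; red bars are list medians and the dotted line is the median of all tested genes. Pan-leukocyte markers have a median of 1.75 and platelet markers one of 0.02, on either side of the constitutive vessel markers at 0.51.

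On the leukocyte side of the same cascade, 7 of 9 tested counter-receptors rose and none fell in the limma fit (median log2 fold change 1.03). Itgb2, the shared chain of LFA-1 and Mac-1 that pairs with ICAM-1, rose by 1.74 (adjusted p = 1.5e-04), and Itgal, the alpha chain of LFA-1, by 1.14 (adjusted p = 0.0025). Itga4, the alpha chain of the VCAM-1 receptor, had a log2 fold change of 1.03 (adjusted p = 0.0021), a value looked up because Vcam1 rose. Itgb1, its beta 1 chain, did not pass (0.31, limma adjusted p = 0.17). Itgb7, another integrin beta chain of the list, rose by 0.56 (limma adjusted p = 0.011). The filter removed Itgam, the alpha chain of Mac-1. Selplg, the leukocyte ligand of P-selectin, rose by 1.38 and Itgax, an integrin chain of dendritic cells and macrophages, by 1.96. Of 8 listed enzymes that build selectin ligands, 4 passed the filter. Of these, St3gal4, a sialyltransferase, rose by 0.54 (adjusted p = 0.011) and Gcnt1, which branches the sugars of such ligands, fell by 1.44 on the log2 scale (adjusted p = 0.0042).

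Of 8 tested genes of the cytokines that switch on these adhesion molecules and of their receptors, 2 rose and none fell (limma, median log2 fold change 0.34), a share near the 23.4% called higher among all tested genes. The 2 were Ifngr2 at 0.96 and Ifngr1 at 0.95, the chains of the interferon-gamma receptor. Tnf, at 0.63 (adjusted p = 0.12), Il1b, at 0.26 (adjusted p = 0.081), and Il1a, at 0.11 (adjusted p = 0.69), did not pass. The filter removed Lta, Ifng, Il4 and Il13.

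Other cell types that can carry these molecules were followed by their markers. Of 9 pan-leukocyte markers 8 rose (limma, median log2 fold change 1.75), led by Cd52 at 2.42 and Coro1a at 2.21, with Ptprc, which encodes CD45, at 1.96. The mean level of all 9 leukocyte markers was 8.07 on both wild type arrays and 9.61 and 9.65 on the K5-IKKbeta arrays. The rises of Icam1, Vcam1 and Pecam1 came with this rise in leukocyte markers, whose part in them was not tested. Platelet markers, relevant to Vwf, Selp and Pecam1, had a median of 0.02 over 5 tested genes. Pf4, which macrophages may also make, rose by 0.83, and Gp1bb fell by 0.69. The mean level of the 5 platelet markers was 7.88 and 7.73 in wild type and 7.83 and 7.78 in K5-IKKbeta skin.

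Among basal keratinocyte markers, relevant to Icam1, 7 of 8 rose (limma, median log2 fold change 0.51). Lamb3, a laminin chain of the basement membrane, rose by 1.14 and Krt14, the partner of keratin K5, by 0.53. Values for Krt14 come from an _x_at probe set, which may bind other sequences. The mean level of all 8 basal keratinocyte markers was 10.97 and 10.93 in wild type and 11.61 and 11.34 in K5-IKKbeta skin. Of 8 dermal fibroblast markers, relevant to Vcam1, 5 rose and none fell (median 0.71), with Thy1 at 1.48 and Pdgfra, a growth factor receptor of fibroblasts, at 1.30. The markers that did not pass were the collagen genes Col1a1 at 0.27, Col1a2 at 0.24 and Col3a1 at 0.19 (limma adjusted p = 0.09 to 0.22). The mean level of all 8 fibroblast markers was 12.24 and 12.13 in wild type against 12.80 and 13.07 in K5-IKKbeta skin. The part of keratinocytes and fibroblasts in the Icam1 and Vcam1 values was not tested.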

How the data were processed

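Total RNA of back skin was hybridised to 4 Affymetrix arrays. The deposited values are RMA values, per the submitters' processing notes (RMA as a method corrects background, applies quantile normalization and summarises probes per probe set); neither a version nor a log base is named, and the deposited values of 2.65 to 14.67 were used as log2 without further normalization. For that processing, build and annotation are not given in these sources. Arrays limit the precision by their number, and p-values rest on the moderated spread between pools, not mice.

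Probe sets were named from the platform annotation, with symbols checked through gene identifiers of RefSeq (34754 of 34958 matched, used for names). Each gene was represented by the probe set with the highest mean, and genes whose mean exceeded 6.33, the 40th percentile over probe sets, were tested. limma 3.58.1 in R 4.3.3 (lmFit, eBayes, 1 term for genotype, two-sided, Benjamini-Hochberg, threshold 0.05) was fitted over 13074 genes and, unfiltered, over 45101 probe sets. The procedure was tested on simulated data. Named genes were Ikbkb, the 10 genes, from each list at most 4 called genes by size of change (if none was called, at most 2 by p), and the 5 nearest to Icam1; others are given because they are few or belong to the text beside them. Members and lists were chosen with earlier results of these data known. The lists are not independent evidence. Listed genes that were removed by the filter or had no probe set of their own were not tested. Alternatives were other filters, probe set rules, scalings, tests, a replicate block and leaving out each array.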

Additional observations from a re-analysis of the deposited data

How the results depend on the processing

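Of 123 log2 fold changes of the tested members under alternative settings, 107 kept their direction and their side of the threshold. Settings that leave 1 array in a group are included. Selp, never called, changed sign with another quantile normalization (-0.013), without wild type 1 (-0.002) and without K5-IKKbeta 2 (-0.021); leaving out each array gave it -0.021 to 0.108. With no moderation across genes, 0 member genes, 0 activation genes, 0 constitutive markers and 0 member probe sets were called, while 1.02% of all tested genes were; at an unadjusted p under 0.05 that model passed 6 member genes, 2 activation genes, 4 constitutive markers and 8 member probe sets, among 32% of all tested genes and 20.6% of all probe sets, while limma at the same unadjusted p passed 7, 2, 5 and 9, among 44.2% and 29.1%. Without moderation the adjusted p was 0.052 to 0.15 for the 6 called genes, with 2 residual degrees of freedom per gene. Tek was also lost with another quantile normalization (0.32, adjusted p = 0.060) and in a test against a 1.2-fold change (adjusted p = 0.45). The activation median minus the constitutive median, 0.861, was 0.196 with no filter on dim probe sets, which adds Sele, 1.839 with a filter at the 60th percentile, which removes Selp and Tie1, and 2.343 when the probe sets of a gene were averaged, under which Selp is removed and Vcam1 is at 2.64.

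Leaving out each array in turn gave a difference of medians of 0.755 to 0.907. Log2 fold changes then ranged from 2.811 to 3.331 for Icam1, 1.343 to 1.405 for Vcam1, 0.551 to 0.733 for Tie1 and 0.299 to 0.469 for Tek. Each of these fits leaves 1 array in a group, without a spread between pools there, so calls are not given. Replicate numbers are shared by the genotypes in the labels but nothing there pairs the pools. Deviations of same-numbered pools correlated at 0.253 over tested genes, which are not independent, and with the replicate number as a block 6 member genes were called, as without it. The signal limits Sele, 1 Selp probe set and 1 Cdh5 probe set, which lay near background.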

Other observations

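Growth factors and supporting cells of vessels were measured beside the endothelial genes. Of 7 tested VEGF and angiopoietin ligands, 4 rose and none fell in the limma fit (median log2 fold change 0.64), where 23.4% of all tested genes were called higher. Vegfc, the ligand of the lymphatic VEGF receptor, rose by 1.10 (adjusted p = 0.0090), Vegfd by 0.64, Vegfb by 0.73 (adjusted p = 0.0031) and Angpt1, the activating ligand of Tek, by 0.81 (adjusted p = 0.011). The Vegfc value comes from an _x_at probe set, which may bind other sequences, and its wild type pools measured 6.39 and 6.90. Values for Vegfa, the main ligand of Kdr, and Angpt2, the other main ligand of Tek, gave 0.44 (adjusted p = 0.061) and 0.19 (adjusted p = 0.22); both were looked up because Kdr and Tek are their receptors.

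Of 12 tested pericyte and smooth muscle markers, 7 rose and 1 fell (limma, median log2 fold change 0.59), where 23.4% of all tested genes were called higher and 10.6% lower. Des, an intermediate filament protein of muscle that skeletal muscle also makes, rose by 1.14, Myh11, the myosin of smooth muscle, by 0.81, and Cspg4, a proteoglycan of pericytes, by 0.78. The member that fell, Tagln, an actin-binding protein of smooth muscle, was at -0.41 (adjusted p = 0.018), and Acta2, smooth muscle actin, at 0.0071 (adjusted p = 0.96); these were singled out after their values were seen.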
